A study of Homo sapiens with 10 samples.

Results

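A set of 6 pigment-cell genes was followed through an RNA-seq experiment in 501Mel cells: SLC45A2, SLC24A5 and OCA2, which encode membrane transporters of the melanosome, GPR143, TRPM1 and MC1R, which encode receptors or channels of pigment cells. The set is defined by gene name and by no measured value. The deposited tables list 187626 transcripts without gene names, so each gene is represented by 1 Ensembl transcript that could be assigned to it, 6 transcripts in all. Other isoforms of these genes were not analysed here. 501Mel is an established human melanoma cell line. It received an siRNA labelled siIRF4, directed by its name at the transcription factor IRF4, or a control labelled siCTRL, with 3 libraries of polyadenylated RNA in each group and no other treatment named. The same line with an eGFP-tagged IRF4 was used for ChIP-seq, whose peaks were not set against these genes, as the gene positions at hand are of another build.

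Melanin is made inside melanosomes, organelles related to lysosomes, by tyrosinase and its relatives. Tyrosinase works poorly at acid pH, and several of the transporters are known for setting the ion content and pH of the organelle. OCA2 supports a chloride conductance, SLC45A2 is a proton-coupled sugar transporter that acts on melanosomal pH, and SLC24A5 is a potassium-dependent sodium and calcium exchanger of the pigment cell's internal membranes. Inherited loss of any of these transporters causes oculocutaneous albinism. GPR143 is an intracellular receptor on melanosomes whose loss causes ocular albinism. MC1R is the cell-surface receptor for melanocyte-stimulating hormone, which raises cyclic AMP and shifts synthesis to dark eumelanin, and TRPM1 is a cation channel whose gene also holds the microRNA miR-211 in an intron. Many pigment genes are driven by MITF, a basic helix-loop-helix factor that binds E-boxes with the letters CATGTG or CACGTG.

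The promoters are shown because 3 of the genes, SLC24A5, GPR143 and OCA2, varied together between libraries while MC1R did not. The RefSeq promoter table (GRCh38.p14) held a window of 250 bases before to 50 bases after the start for 5 of the 6 genes, all but SLC45A2. The 250 bases before the start are printed 5′ to 3′ for these 4 genes, with the letters CATGTG, or CACATG where the match is on the other strand, in capitals.
SLC24A5, chr15:48120740-48120989, plus strand: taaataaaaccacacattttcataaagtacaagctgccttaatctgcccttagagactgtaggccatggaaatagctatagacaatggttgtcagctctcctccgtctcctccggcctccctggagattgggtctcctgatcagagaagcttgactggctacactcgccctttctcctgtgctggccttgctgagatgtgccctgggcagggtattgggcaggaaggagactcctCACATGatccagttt
GPR143, chrX:9765848-9766097, minus strand: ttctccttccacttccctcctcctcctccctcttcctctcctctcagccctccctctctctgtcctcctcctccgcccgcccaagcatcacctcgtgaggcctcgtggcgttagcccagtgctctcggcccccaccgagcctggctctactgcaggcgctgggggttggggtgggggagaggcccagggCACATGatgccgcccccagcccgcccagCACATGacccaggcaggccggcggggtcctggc
OCA2, chr15:28099316-28099565, minus strand: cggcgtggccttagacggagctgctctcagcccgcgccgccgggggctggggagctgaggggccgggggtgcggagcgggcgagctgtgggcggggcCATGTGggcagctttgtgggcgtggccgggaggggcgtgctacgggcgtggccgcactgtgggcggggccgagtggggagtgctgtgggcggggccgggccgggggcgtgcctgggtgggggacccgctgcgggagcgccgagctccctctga
MC1R, chr16:89918612-89918861, plus strand: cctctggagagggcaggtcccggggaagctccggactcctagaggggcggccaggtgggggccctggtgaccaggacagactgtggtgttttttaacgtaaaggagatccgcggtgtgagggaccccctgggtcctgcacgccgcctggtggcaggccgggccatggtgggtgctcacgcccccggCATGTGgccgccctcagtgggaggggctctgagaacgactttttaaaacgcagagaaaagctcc
Every one of these windows held the E-box CATGTG. It began 15 bases before the start in SLC24A5, 61 and 33 bases before it in GPR143, 153 bases before it in OCA2 and 64 bases before it in MC1R. Both RefSeq starts of TRPM1 also had 1 match, 8 and 56 bases before the start. Over the 35116 promoter windows of the table, 11.1% held CATGTG on either strand. None of the 5 genes' windows held CACGTG, the core of the interferon-stimulated response element (GAAA and GAAA with 2 free bases between them), the ETS-IRF composite element (GGAA and GAAA with 2 free bases between them) or the AP-1 letters TGANTCA, searched on both strands. Of all windows, 7.26%, 3.57%, 2.82% and 7.71% held these. MC1R, which did not vary with the other 3 genes, has the same E-box letters as they do. The matches are descriptions of letters in these windows and not measured binding sites.

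The libraries held between 129989698 and 203758441 estimated counts. On the first principal component of all tested transcripts, with 33.6% of the variance, siIRF4 replicate 1 lay with siCTRL replicates 1 and 3, and siCTRL replicate 2 lay with siIRF4 replicates 2 and 3. Read by replicate number, both replicate 1 libraries lay low on this component (-111.1 in siIRF4, -128.2 in siCTRL) and both replicate 2 libraries high (199.3 and 132.4). Replicate 3 was split, at 80.8 in siIRF4 and -173.2 in siCTRL. A part of the replicate number in this grouping was not tested. The group labels and the grouping of the libraries differ for siIRF4 replicate 1 and siCTRL replicate 2. Whether the labels of these 2 libraries were exchanged was not tested, and such an exchange would change every group mean and fold change given here. The groups are those of the labels throughout, and the comparison is given with and without these 2 libraries. Neither the level of IRF4 nor markers of the melanocyte lineage or of other cell types were analysed here, so neither the knockdown nor the cell type was checked on them. Whether the 3 libraries of a group are separate cultures is not given beyond the word triplicate, so p-values measure the spread between these samples.

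The transporter SLC45A2 was the most abundant of the 6 transcripts in every library. Its transcript of 1772 bases had 340.98, 239.61 and 233.98 TPM (abundance per length, scaled to a sum of 1000000 in each library) in siIRF4 replicates 1, 2 and 3. In siCTRL replicates 1, 2 and 3 it had 390.84, 224.63 and 304.38 TPM. The 3 highest libraries were siCTRL replicates 1 and 3 and siIRF4 replicate 1, and the lowest of all was siCTRL replicate 2. The groups overlapped, with 272 ± 60.2 TPM (SD, n = 3) in siIRF4 and 307 ± 83.1 TPM in siCTRL.

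SLC24A5, the exchanger, was next in every library, and its spread was much wider. In siIRF4 replicates 1, 2 and 3 it had 201.60, 58.70 and 72.26 TPM, which is 111 ± 78.9 TPM (SD, n = 3). In siCTRL replicates 1, 2 and 3 it had 218.79, 76.32 and 196.85 TPM, which is 164 ± 76.7 TPM. The libraries thus lay either at 196.85 TPM and above or at 76.32 TPM and below, with no library between. Each group had libraries at both levels: siIRF4 replicate 1 was at the upper one and siCTRL replicate 2 at the lower one. Read by replicate number, both replicate 1 libraries were at the upper level and both replicate 2 libraries at the lower one. Replicate 3 was split, and a part of the replicate number was not tested. The highest library was 3.73 times the lowest, and the replicates of siIRF4 alone spanned 3.43-fold.

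OCA2, the chloride transport protein, was much less abundant and spread the widest. Its transcript of 3186 bases had 12.60, 2.82 and 3.72 TPM in siIRF4 replicates 1, 2 and 3, and 11.88, 2.24 and 12.55 TPM in siCTRL replicates 1, 2 and 3. The means were 6.38 ± 5.40 and 8.89 ± 5.77 TPM (SD, n = 3 each). The same 3 libraries as for SLC24A5 were high and the same 3 low, again with both levels in each group. Between same-numbered libraries, OCA2 was higher in siIRF4 for replicates 1 and 2 and lower for replicate 3. The extremes differed 5.62-fold between siIRF4 replicate 1 and siCTRL replicate 2, a difference opposite in direction to that of the group means. Estimated counts of OCA2 ran from 812.8 to 3709.5, where counting error alone is at most 3.51%.

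**Figure D1:**
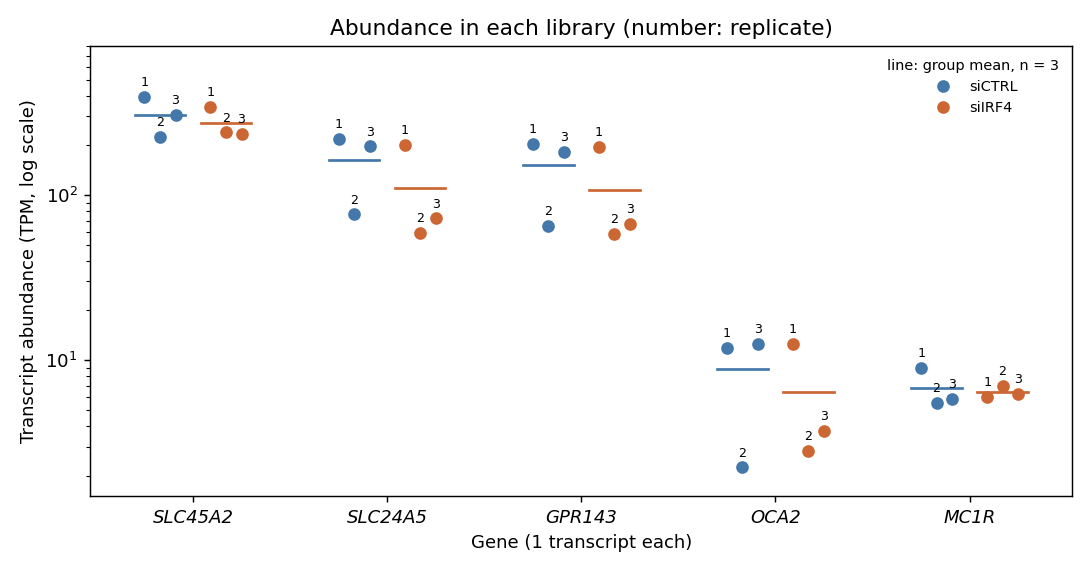
Abundance in TPM (log axis) of 5 transcripts in each library, siCTRL in blue and siIRF4 in orange, with the replicate number above each point and a line at the mean of 3 libraries. For SLC24A5, GPR143 and OCA2, siCTRL replicate 2 lies with siIRF4 replicates 2 and 3. For these genes siIRF4 replicate 1 lies with siCTRL replicates 1 and 3. By replicate number, replicate 1 is high and replicate 2 low in both groups, and replicate 3 is split. TRPM1, listed at 0 in all libraries, is not drawn.

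Among the receptors, GPR143 matched SLC24A5 closely in level. Its transcript of 1762 bases had 196.60, 58.27 and 66.67 TPM in siIRF4 replicates 1, 2 and 3, or 107 ± 77.6 TPM (SD, n = 3). In siCTRL replicates 1, 2 and 3 it had 204.98, 64.92 and 183.46 TPM, or 151 ± 75.4 TPM. The high and the low libraries were those of SLC24A5, and the groups overlapped.

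MC1R, the hormone receptor, did not share this pattern. Its transcript of 3099 bases had 5.99, 6.95 and 6.26 TPM in siIRF4 replicates 1, 2 and 3, and 9.02, 5.53 and 5.80 TPM in siCTRL replicates 1, 2 and 3. The group means were 6.40 ± 0.499 and 6.78 ± 1.94 TPM (SD, n = 3 each). Only siCTRL replicate 1 stood above the others, and the range over the 6 libraries was 1.63-fold. The next gene on the chromosome in RefSeq is TUBB3, and transcripts that run from MC1R into it are known, so the split of fragments between them makes the MC1R estimate uncertain.

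The TRPM1 transcript of 5514 bases was listed at 0 in all 6 libraries. A count of 0 allows up to 3 counts, which would be between 0.00398 and 0.00611 TPM, for counting error only. This holds for the 1 transcript alone. Estimation can give all fragments to another isoform of the gene, so no level of TRPM1 is drawn from it, and it did not enter the test.

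Levels are per length and can be set against each other within a library. In each of the 6 libraries the order of these transcripts, not of sums over isoforms, was SLC45A2, then SLC24A5, then GPR143. OCA2 and MC1R lay far below. SLC24A5 and GPR143 were close neighbours, with SLC24A5 slightly higher in 6 of 6 libraries: their TPM ratio was 1.03, 1.01 and 1.08 in siIRF4 replicates 1, 2 and 3 and 1.07, 1.18 and 1.07 in siCTRL replicates 1, 2 and 3. That ratio varied 1.17-fold over libraries in which SLC24A5 itself varied 3.73-fold. OCA2 and MC1R changed places, with the uncertainty of the MC1R estimate given above. OCA2 exceeded MC1R in siIRF4 replicate 1 and siCTRL replicates 1 and 3, and lay below it in the other 3 libraries, with a ratio of MC1R to OCA2 from 0.462 to 2.47.

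SLC45A2 varied in the same libraries but less. The ratio of SLC45A2 to SLC24A5 was 1.69 in siIRF4 replicate 1 and 1.79 and 1.55 in siCTRL replicates 1 and 3. It was 4.08 and 3.24 in siIRF4 replicates 2 and 3 and 2.94 in siCTRL replicate 2. The transcripts of the set therefore varied in unequal proportion between libraries. OCA2 was also lower against SLC24A5 in siCTRL replicate 2, where the ratio of SLC24A5 to OCA2 was 34.0, than in the other libraries, where it ran from 15.7 to 20.8.

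**Figure D2:**
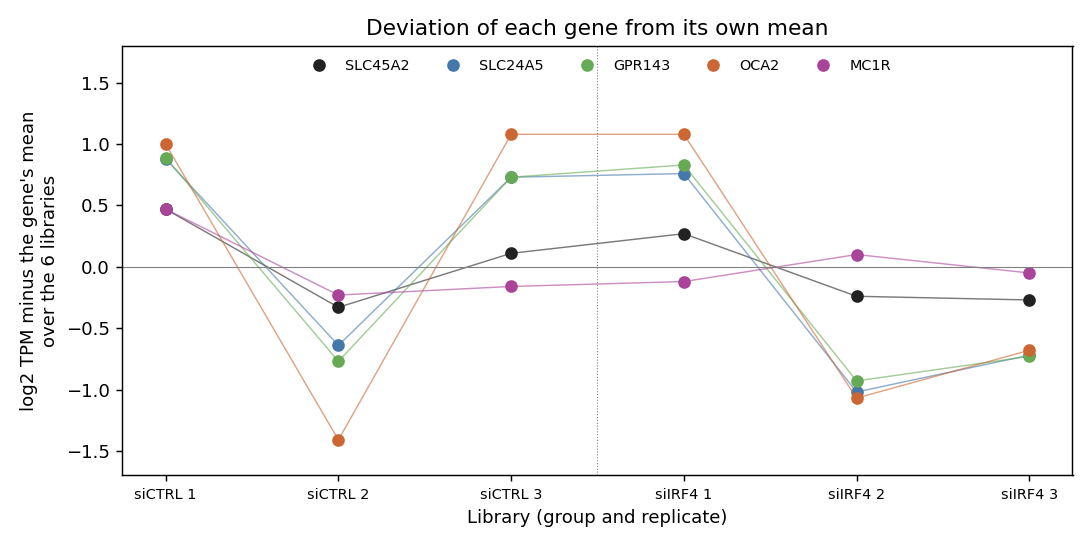
Deviation of each gene from its own mean over the 6 libraries, in log2 TPM, for siCTRL (left of the dotted line) and siIRF4 (right); thin lines only join the points of a gene. SLC24A5, GPR143 and OCA2 lie at 0.73 or above in siCTRL replicates 1 and 3 and siIRF4 replicate 1 and at -0.64 or below in the other 3 libraries, SLC45A2 follows with smaller deviations, and MC1R lies between -0.23 and 0.47.

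The comparison of siIRF4 with siCTRL asked whether these transcripts change when IRF4 is targeted. By the edgeR quasi-likelihood test over 83831 transcripts, 0 of the 5 tested transcripts passed an adjusted p of 0.05, beside a background of 0% of all transcripts tested. At an unadjusted p under 0.05 the count was also 0 of 5, beside 2.14% of all transcripts. The TPM values of the groups overlapped for all 5, while they did not overlap for 7.17% of all transcripts tested. These shares of the background leave no result about the 5 transcripts under the labels.

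All 5 group means were lower in siIRF4, by less than the spread between replicates. The log2 fold change of SLC24A5 was -0.54 (SE 0.588, 95% interval -1.95 to 0.86), that of GPR143 was -0.47 (SE 0.612, -1.94 to 0.99) and that of OCA2 was -0.46 (SE 0.794, -2.36 to 1.44). For SLC45A2 it was -0.16 (SE 0.259, -0.78 to 0.46) and for MC1R -0.08 (SE 0.232, -0.64 to 0.47), and without siCTRL replicate 1 these last values turned to 0.05 and 0.18. The edgeR adjusted p was 1 for each of the 5, and ran from 0.111 to 1 over the alternatives. The intervals of SLC24A5, GPR143 and OCA2 include 2-fold and larger changes downward, and reach 0.86, 0.99 and 1.44 upward. The test therefore did not show that these transcripts stay the same.

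The size of these differences moved with every library that was left out. Without siIRF4 replicate 1 the log2 fold changes were -1.35 for SLC24A5, -1.30 for GPR143 and -1.48 for OCA2. Without siCTRL replicate 2 they were -0.89, -0.84 and -0.92. Leaving out any of the other 4 libraries brought them nearer to 0. Without siIRF4 replicates 2 and 3 in turn they were -0.24 and -0.28 for SLC24A5, -0.18 and -0.19 for GPR143 and -0.11 and -0.16 for OCA2. Without siCTRL replicates 1 and 3 in turn they were -0.29 and -0.38 for SLC24A5, -0.20 and -0.30 for GPR143 and -0.20 and -0.12 for OCA2. The fit without siIRF4 replicate 1 and siCTRL replicate 2 together kept siIRF4 replicates 2 and 3 and siCTRL replicates 1 and 3. Its log2 fold changes were -1.69 (SE 0.132) for SLC24A5, -1.66 (SE 0.123) for GPR143 and -1.94 (SE 0.173) for OCA2. For SLC45A2 and MC1R they were -0.57 (SE 0.161) and -0.18 (SE 0.265). Replicate 1 was then only in siCTRL and replicate 2 only in siIRF4, so for these the label and the replicate number cannot be told apart. The edgeR adjusted p with both left out was 0.111 for SLC24A5, GPR143 and OCA2, 0.264 for SLC45A2 and 0.86 for MC1R, again with 0 transcripts called in all. In this fit 0.111 was the smallest adjusted p of any transcript. At an unadjusted edgeR p under 0.05 it had 10811 of 85498 transcripts, against 1791 of 83831 with all libraries, so the change was not particular to these genes. The 2 libraries were singled out because they lie with the other group in these same data, so the small errors of the remaining 4 libraries describe those libraries and are no test of the siRNA.

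**Figure D3:**
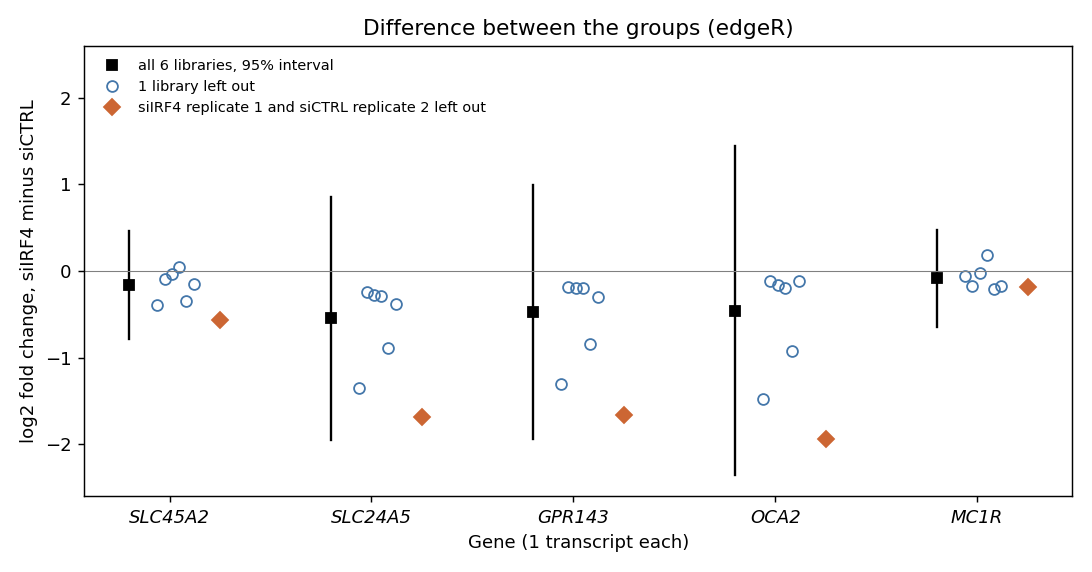
The log2 fold change of siIRF4 over siCTRL for 5 transcripts by edgeR, from all 6 libraries with its 95% interval (black), with each library left out in turn (open circles) and with siIRF4 replicate 1 and siCTRL replicate 2 both left out (orange). All 5 intervals include 0, and leaving out both libraries moves SLC24A5, GPR143 and OCA2 to -1.69, -1.66 and -1.94 while MC1R stays at -0.18.

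Depth and fragment length are given beside this pattern, and their part in it was not tested. The 3 libraries high in SLC24A5, GPR143 and OCA2 held 143091223, 152672204 and 129989698 estimated counts and had mean fragment lengths of 271.5, 297.3 and 272.5 bases. The 3 low ones held 135991544, 150847346 and 203758441 with 285.1, 262.7 and 294.5 bases. In bulk RNA, fewer pigmented cells and less of these RNAs per cell cannot be told apart.

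The variation of SLC24A5, GPR143 and OCA2 between libraries was wide against transcripts of like abundance, meaning those with a mean CPM (counts scaled to a library total of 1000000) within 2-fold of the gene's own. The highest and lowest libraries of SLC24A5 were 1.84 apart in log2 normalised CPM, where the median of 2286 such transcripts was 0.50, and 96.7% of them had a smaller range. For GPR143 the range was 1.76 and 96.2% of 2704 transcripts had a smaller one. For OCA2 it was 2.54, against a median of 0.67, and 97.1% of 8579 transcripts had a smaller one. SLC45A2 had a range of 0.82, above 81.6% of 957 transcripts. MC1R lay in the middle of its class, with a range of 0.71 against a median of 0.70.

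**Figure D4:**
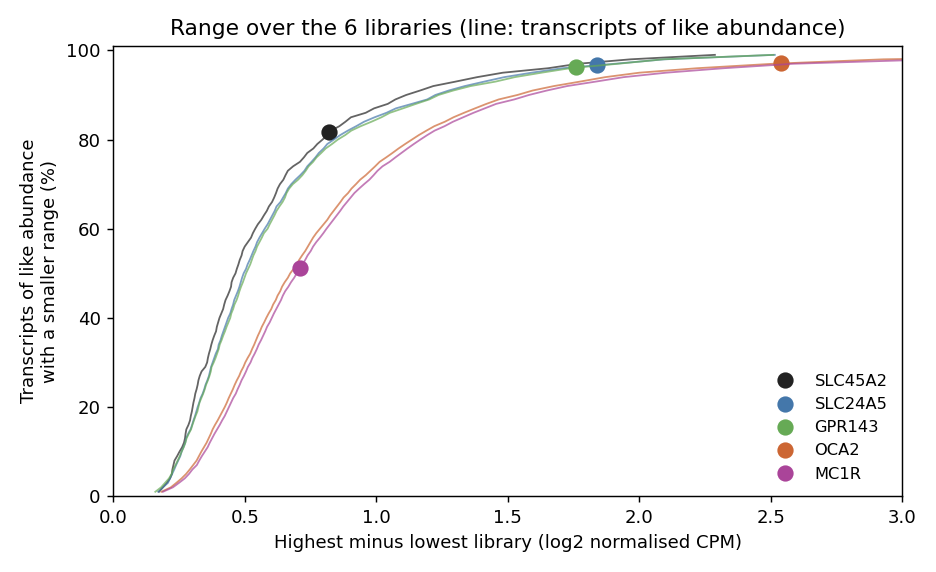
Share of transcripts of like abundance (line, 1 for each gene) with a smaller difference between the highest and the lowest of the 6 libraries than that on the horizontal axis, in log2 normalised CPM; the point marks the gene itself. SLC24A5, GPR143 and OCA2 lie above 96.2% or more of their classes, SLC45A2 above 81.6% and MC1R near the middle.

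Within the labelled groups the spread of these 3 genes was several times that of their class. The SD of log2 normalised CPM of SLC24A5 was 0.99 over the 3 siIRF4 libraries and 0.84 over the 3 siCTRL libraries, where the medians of its class were 0.19 and 0.18. GPR143 had 1.00 and 0.92 against 0.19 in both groups, and OCA2 had 1.18 and 1.42 against 0.24 and 0.25. SLC45A2 had 0.36 and 0.4 against 0.18 in both groups. MC1R was below the median of its class in siIRF4, with 0.16 against 0.24. In siCTRL it was above that median, with 0.39 against 0.26. The 13432 transcripts that averaged 10 CPM or more were set against the mean standardised log2 CPM of the 5 tested genes, MC1R included. The 5 most like that mean had a Pearson correlation of 0.994 to 0.998 with it over the 6 libraries. Their TPM varied from 1.41-fold to 2.99-fold. The coefficients rest on 6 points in separate sets, were chosen as the highest of many, and belong to transcripts without gene names. The coefficients alone do not show that the pattern of the 3 genes is shared. The first principal component of all tested transcripts, given above, split the libraries into the same 3 and 3.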

How the data were processed

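RNA-seq of 6 libraries was analysed. The submitters' processing notes name kallisto and sleuth, and the builds GRCh38 and hg19, without versions or roles. The annotation release is not given in the sources used here. Per the file headers, the authors deposited for each transcript an estimated count and a TPM value, which sums to 1000000 in each library. Genes were assigned by 1 Ensembl transcript identifier each, taken from the definition of the gene set, since neither the files nor the reference tables pair transcripts with genes. Sums over all isoforms, other pathway genes and marker genes were therefore not analysed here. Peaks near these genes were not analysed either, as the gene positions at hand are of another build.

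Estimated counts were rounded and tested per transcript with edgeR 4.0.16 (quasi-likelihood, TMM, filterByExpr, two-sided, no block) in R 4.3.3. The filter kept 83831 of 187626 transcripts, with 99.87% of the counts. Benjamini-Hochberg adjustment ran over all of them, with a threshold of 0.05. Standard errors are the absolute log2 fold change over the square root of F. Levels are the authors' TPM. The text names the 6 genes by rule. The set, though defined by name, and the tests were chosen with earlier results of these data known. The fit was tested on simulated data. The simulated counts were drawn independently for each transcript and library, so they hold no grouping of libraries like that on the first principal component. No 2 libraries agreed within sampling noise (chi-square per degree of freedom at least 34.7). Alternatives included DESeq2 1.42.0 and limma 3.58.1.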

Additional observations from a re-analysis of the deposited data

How the results depend on the processing

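The number of transcripts past the adjusted threshold was 0 with edgeR (1791 at an unadjusted p under 0.05) and stayed 0 in 15 of the 17 alternatives, the 6 fits without 1 library and limma-voom among them. It was 175 with DESeq2 and 8 with limma on log2(TPM + 0.1). The cause was not tested, and none of the 5 tested pigment-cell transcripts was among these calls. SLC24A5, GPR143 and OCA2 kept a negative log2 fold change in all 17 alternatives, with ranges of -1.69 to -0.24, -1.66 to -0.18 and -1.94 to -0.11. The alternatives refit the same libraries or a part of them, so the steady sign is no independent support. The most negative values are from the fit without siIRF4 replicate 1 and siCTRL replicate 2. Without siCTRL replicate 1, the log2 fold change of SLC45A2 turned to 0.05 and that of MC1R to 0.18. Across the fits without 1 library they ran from -0.39 to 0.05 for SLC45A2 and from -0.21 to 0.18 for MC1R. Without siIRF4 replicate 1 and siCTRL replicate 2 together, SLC45A2 had -0.57. With the replicate block, 0 transcripts were called. The log2 fold change was then -0.64 (SE 0.323) for SLC24A5, -0.54 (SE 0.354) for GPR143 and -0.42 (SE 0.505) for OCA2. It was -0.16 (SE 0.152) for SLC45A2 and -0.05 (SE 0.22) for MC1R. Without the block the errors were larger, at 0.588, 0.612, 0.794, 0.259 and 0.232 in this order of genes. Deviations of same-numbered libraries correlated at 0.196, 0.238 and 0.038 across transcripts for replicates 1, 2 and 3. The labels state no model, so the main fit took the libraries as unpaired. These correlations do not show that the libraries are unpaired. Gene sums, and peaks near the genes, were not run. Counting error was 0.401% to 3.51% of the estimated counts; the error of splitting fragments between isoforms is not in it and was not measured.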
